A study of Mus musculus with 20 samples.

Results

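The 63 gene symbols of the mouse chemokine system that fit a fixed naming rule were followed in the heart apex of mice with AL amyloidosis. The rule took every row named Ccl, Cxcl, Ccr, Cxcr or Ackr with a number, together with Cx3cl1, Cx3cr1, Xcl1, Xcr1 and Ccrl2, and it found 69 rows of the 25308 in the table. They were 31 rows of CC ligands, 13 of CXC ligands, 2 of XC and CX3C ligands, 18 of signalling receptors and 5 of atypical receptors. After the filter on low counts 44 of the 69 rows were tested, among 14477 genes in all.

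Chemokines are small secreted proteins that guide the movement of white blood cells, and they are grouped by the spacing of the cysteines near their start. They act through G protein-coupled receptors, while the atypical receptors bind chemokines without coupling to G proteins and so remove or hold them. In the heart, Ccr2 marks monocytes that enter from the blood and the macrophages that arise from them, and Cxcl12 and Ccl21 are made by resident vessel and stromal cells.

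RNA of the heart apex was sequenced in 20 mice. The AL group held 9 λS-DH mice (genotype DH-lambdaS) with amyloid deposits in the heart. The LS group held 4 λS-DH mice without induction and without deposits, and the Ctrl group 7 age-matched DH mice. In λS-DH mice a human lambda light chain gene from a patient, under a mouse heavy chain variable promoter, is inserted at the Ig kappa locus. The DH-LMP2A alleles, which yield plasma cells devoid of Ig heavy chains, are carried by all 3 groups, and the human gene is absent from DH mice. Amyloidosis was induced by injecting fibril seeds or the soluble variable domain into the vein, so that induction and deposits differ together between AL and LS. Mice of both sexes were used in the study, and the labels give neither the sex nor the age or amyloid load of single mice. The first sequencing run held 7 AL, 4 LS and 4 Ctrl mice, and the second run 2 AL (AL8 and AL9) and 3 Ctrl (Ctrl5 to Ctrl7).

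Total counts were at least 43993277 per mouse in the first run and at most 11794615 in the second run. A count of 3, used as the floor of detection, corresponded to at most 0.0748 CPM (counts scaled to the size of the library with TMM factors) in the first run and at least 0.231 CPM in the second run, so that the weakest members were near or under the floor in AL8, AL9 and Ctrl5 to Ctrl7. Cardiomyocyte markers, 13 genes in number, summed to between 66839 and 102904 CPM in all mice. In the first run they summed to between 66839 and 79877 CPM in AL, 84252 and 92941 CPM in LS and 79660 and 89813 CPM in Ctrl mice. In the second run they summed to between 83438 and 102484 CPM in AL and 93426 and 102904 CPM in Ctrl mice. The part of this difference in the values of the members was not tested. Markers of mesothelium, the outer lining of the heart, summed to between 18.4 and 321 CPM in AL, 8.48 and 32.4 CPM in LS and 19.9 and 47.9 CPM in Ctrl mice, and the highest value was in AL9. Liver genes summed to between 245 and 458 CPM in 5 of the 11 mice without deposits (LS1, LS3, Ctrl1, Ctrl3 and Ctrl4), and to at most 89.0 CPM in AL mice. Of 28 tested liver genes 25 were called lower in AL against Ctrl and 19 against LS. Over all genes tested 3.71% were called lower against Ctrl and 3.03% against LS. The part of the liver genes in the values of the members was not tested beyond a fit with them as a covariate, in which 4 of the 9 members called against Ctrl stayed called (Ccr2, Cx3cr1, Cxcl14 and Cxcl16). Of the other 5, Ccl12 (1.23), Ccl19 (2.00), Ccr1 (1.19) and Cxcl5 (1.48) had log2FC at least as large as without the covariate and no longer passed the FDR, and Ccl8 had 0.78. Because the tissue was sequenced in bulk, fewer cells of a type and less RNA per cell cannot be told apart.

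Promoters of members were read to show the DNA around their annotated RefSeq starts. RefSeq promoters of GRCm38.p6, each of 300 bases with 250 before the transcription start, were matched by symbol for 47 of the 63 symbols, and for 12 of the 16 members called in an AL comparison. An interferon-response-like motif (GAAANNGAA) and an NF-kB-like motif (GGGNNTTTC) were searched on both strands. The reverse complement of the NF-kB-like motif begins with the same letters (GAAANN) as the interferon-response-like motif. The NF-kB-like motif stood in 13 of 56 member promoters (23.2%), and in 4.36% of all 32851 promoters. The interferon-response-like motif stood in 8 of 56 member promoters (14.3%) and in 8.56% of all promoters. Among the 13 promoters of members called in an AL comparison, 1 held the NF-kB-like motif (Xcl1) and 3 held the interferon-response-like motif (Ccr2, Cxcl14 and Ccl19). The promoters of Cxcl1 and Cxcl2, neighbouring ligands of the neutrophil receptor Cxcr2, held 2 NF-kB-like matches each, and neither gene was called in any comparison. Neighbouring chemokine genes are duplicates of each other, so their promoters are not independent, and a match is a description of letters and not a measured site. The windows of Ccr2 and Ccl19, with their matches, lie mostly inside the genes as GENCODE places them. There Ccr2 begins at 124101950 on the plus strand and Ccl19 at 42756577 on the minus strand. The promoters of the called receptor Ccr2, of the called ligands Cxcl14, Ccl19 and Xcl1, and of Cxcl2 as an uncalled member are shown 5′ to 3′ on the strand of the gene, with the matches in capitals.
Ccr2, chr9:124101933-124102232, plus strand: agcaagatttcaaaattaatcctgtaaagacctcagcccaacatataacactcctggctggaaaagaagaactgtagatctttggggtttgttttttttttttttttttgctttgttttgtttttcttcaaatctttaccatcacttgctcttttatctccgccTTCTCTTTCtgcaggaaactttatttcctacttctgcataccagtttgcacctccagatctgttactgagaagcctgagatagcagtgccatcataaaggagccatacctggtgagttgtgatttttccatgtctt
Cxcl14, chr13:56296502-56296801, minus strand: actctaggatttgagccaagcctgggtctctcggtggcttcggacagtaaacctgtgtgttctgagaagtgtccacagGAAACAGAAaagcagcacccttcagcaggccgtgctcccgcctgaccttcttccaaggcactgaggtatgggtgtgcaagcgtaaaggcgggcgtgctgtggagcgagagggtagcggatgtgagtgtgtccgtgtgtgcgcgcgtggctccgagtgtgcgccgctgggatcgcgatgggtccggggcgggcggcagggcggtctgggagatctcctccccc
Ccl19, chr4:42756316-42756615, minus strand: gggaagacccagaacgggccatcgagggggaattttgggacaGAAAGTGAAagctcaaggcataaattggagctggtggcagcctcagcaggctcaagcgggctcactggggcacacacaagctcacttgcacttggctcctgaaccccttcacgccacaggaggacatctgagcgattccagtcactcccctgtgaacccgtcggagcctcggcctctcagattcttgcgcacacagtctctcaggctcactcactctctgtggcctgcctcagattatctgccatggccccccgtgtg
Xcl1, chr1:164935473-164935772, minus strand: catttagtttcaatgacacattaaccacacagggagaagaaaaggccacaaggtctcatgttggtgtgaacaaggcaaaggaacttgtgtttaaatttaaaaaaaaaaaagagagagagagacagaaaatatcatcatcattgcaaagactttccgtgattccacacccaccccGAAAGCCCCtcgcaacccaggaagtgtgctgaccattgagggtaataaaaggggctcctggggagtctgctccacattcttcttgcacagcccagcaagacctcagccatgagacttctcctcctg
Cxcl2, chr5:90903649-90903948, plus strand: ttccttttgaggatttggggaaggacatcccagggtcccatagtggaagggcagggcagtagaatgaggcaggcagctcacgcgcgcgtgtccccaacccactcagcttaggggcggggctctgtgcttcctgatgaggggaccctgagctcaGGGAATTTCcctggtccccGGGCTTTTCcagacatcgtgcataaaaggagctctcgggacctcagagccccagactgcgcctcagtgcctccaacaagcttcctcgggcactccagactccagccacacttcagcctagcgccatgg

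Levels were first compared between members, as the median over the 20 mice of CPM per kilobase of exon. Ccl21a (ENSMUSG00000094686), a ligand of Ccr7 made by lymphatic vessels and lymphoid stroma, had the highest level at 41.5. It was followed by Ackr3, the atypical receptor for Cxcl12, at 19.2, by Cxcl12 itself at 15.5 and by Ccl6, a macrophage chemokine, at 13.2. Among signalling receptors the highest was Cxcr4, the receptor for Cxcl12, at 2.30, followed by Ccr1 at 0.761 and Ccr2 at 0.578. The members that stood highest were not those called between groups, since neither Ccl21a, Cxcl12, Ccl6, Ackr3 nor Cxcr4 met the calling thresholds in any comparison. Against Ctrl, Ackr3 missed only the threshold on fold change, as given below. Ccl21a to Ccl21d are near-identical copies: over 870 aligned bases the transcripts of Ccl21a and Ccl21d differed at 6 bases, and the shorter transcript of Ccl21b (ENSMUSG00000095675) was identical to Ccl21d over all 402 of its bases. How reads were split between these copies is therefore uncertain, and with the copies summed the level was 18.3 to 77.7 CPM in AL (median 48.5), 25.8 to 63.9 CPM in LS (median 39.8) and 20.8 to 51.6 CPM in Ctrl mice (median 37.8), with the 3 groups overlapping.

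**Figure D1:**
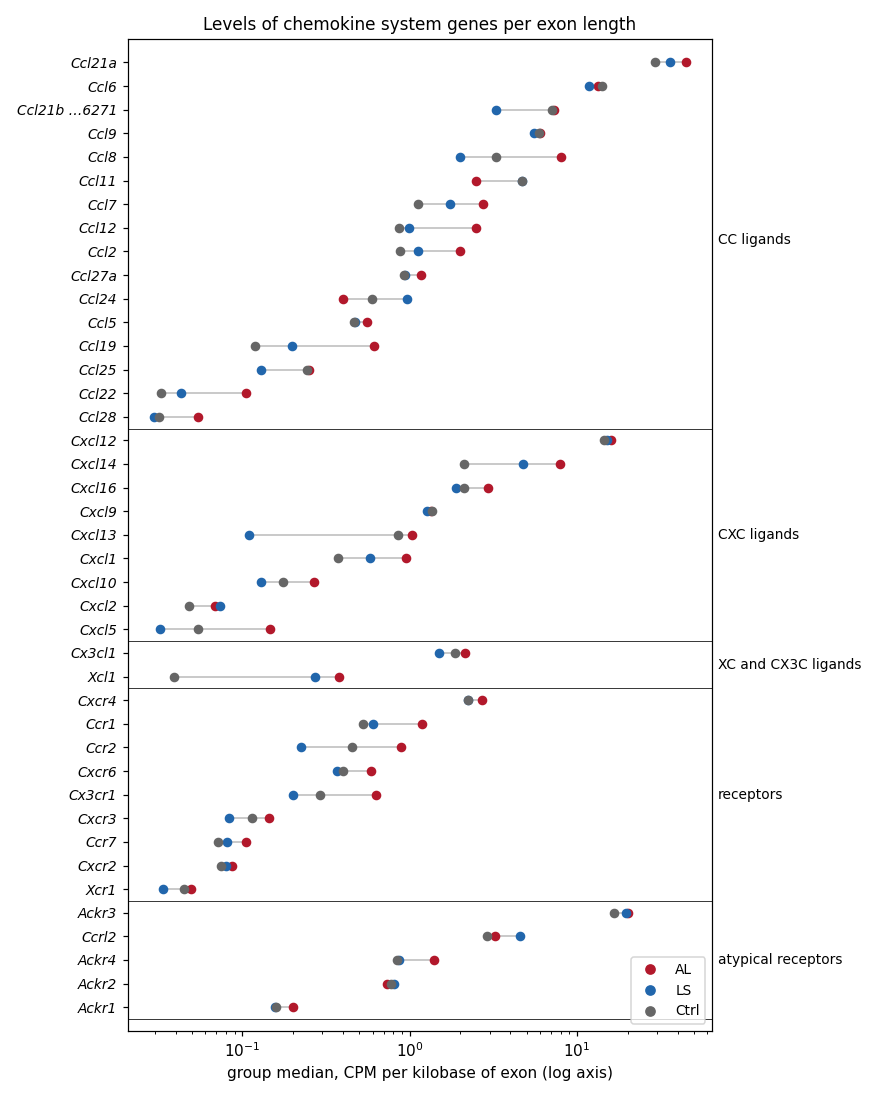
Group medians of 41 tested members in CPM per kilobase of exon, on a log axis, ordered within each role; red points are AL, blue LS and grey Ctrl mice, and 2 Ccl21 copies with a group median of 0 are left out. Ccl21a, Ackr3, Cxcl12 and Ccl6 stand highest, and the groups lie farthest apart in low or intermediate members such as Xcl1, Cxcl13 and Ccl19.

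AL mice were compared with Ctrl mice to ask which members went with the amyloid heart as a whole. A gene was called at an FDR (Benjamini-Hochberg adjusted p, edgeR quasi-likelihood test with group and sequencing run) under 0.05 and an absolute log2 fold change (log2FC) of at least 0.58. Of the 44 tested members 9 were called higher and 0 lower (20.5%), against 7.81% of all genes tested in both directions and 4.1% higher. At the FDR alone, with no requirement on log2FC, 11 members passed (25%), against 26.2% of all genes tested, so that the share of members stood above that of all genes with the fold threshold and not at the FDR alone. By role they were 3 of 18 CC ligands (Ccl19, Ccl12 and Ccl8), 3 of 9 CXC ligands (Cxcl14, Cxcl5 and Cxcl16) and 3 of 10 receptors (Cx3cr1, Ccr1 and Ccr2), with 0 of 2 XC and CX3C ligands and 0 of 5 atypical receptors. At an unadjusted p under 0.05 the atypical receptors had 1 member (Ackr3) and the XC and CX3C ligands 2. The median log2FC of the tested members was 0.41, against 0.01 over all genes tested, and 38 of 44 members lay above 0.

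AL mice were next compared with LS mice, which carry the same human gene. Here 9 members were called higher and 1 lower (22.7%), against 8.9% of all genes tested in both directions, 5.86% higher and 3.03% lower. At the FDR alone 12 members passed (27.3%), against 23.4% of all genes tested. Called higher were 3 of 18 CC ligands (Ccl8, Ccl12 and Ccl25), 2 of 9 CXC ligands (Cxcl13 and Cxcl5) and 4 of 10 receptors (among them Ccr2, Ccr1 and Xcr1), and Ccl24 was called lower. The median log2FC of the receptors was 1.08 and that of all tested members 0.65, against 0.01 over all genes tested. For the receptors the median was 0.50 in AL against Ctrl and -0.62 in LS against Ctrl, where 3 of 10 lay above 0. The value of 1.08 thus goes with low receptor values in LS mice as well as high ones in AL mice. Against LS and Ctrl merged as 1 group of 11 mice, where a log2FC of at least 1 was asked, 10 members were called higher and 0 lower (22.7%), against 4.88% of all genes in both directions and 2.74% higher. At the FDR alone 15 members passed (34.1%), against 36.2% of all genes tested. Those called were Ccr2, Ccl12, Cxcl5, Ccl8, Cxcl14, Cx3cr1, Ccl19, Ccr1, Ccl22 and Xcl1. These comparisons share the AL mice and in part the controls, so they are not independent of each other.

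**Figure D2:**
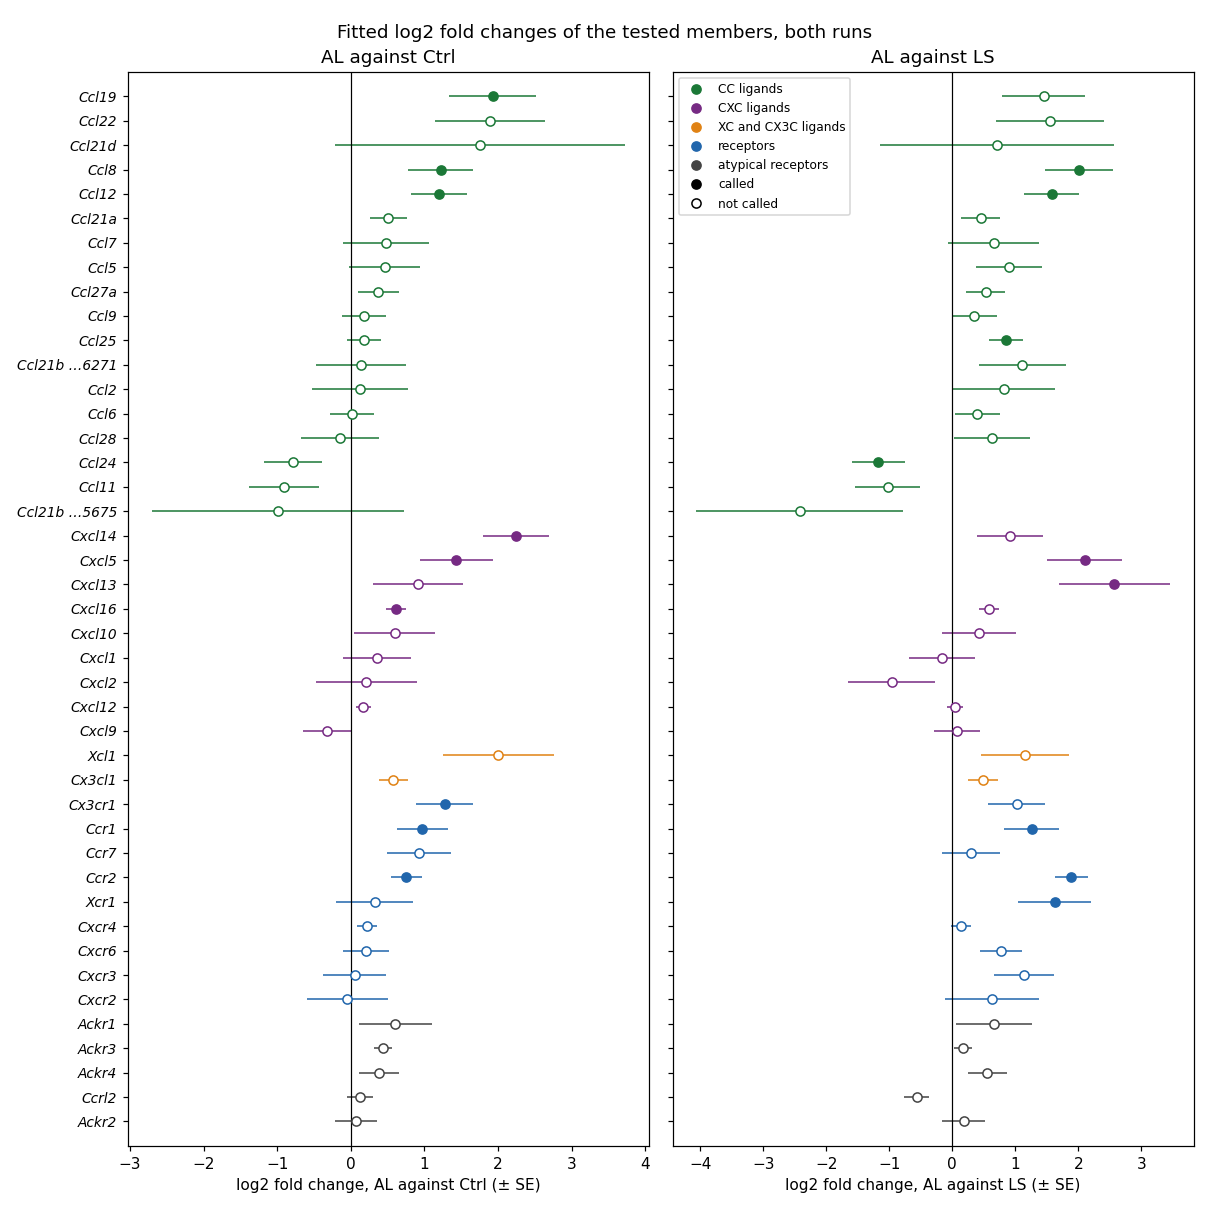
Log2 fold changes with standard errors of 43 tested members in AL against Ctrl (left) and AL against LS (right), in rows ordered by role and by the left value; filled points passed both thresholds and open points did not. In each panel 37 of the 43 points lie to the right of 0, and Ccl24 is the filled point to the left.

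LS and Ctrl mice differ in the human gene, without deposits in either. In this comparison edgeR called 0 of 44 members, against 0.0207% of all genes tested. At an unadjusted p under 0.05 there were 4 members (9.09%, against 5.94% of all genes tested), namely Ccr2 (log2FC -1.13, FDR 0.508), Ccrl2 (0.69, FDR 0.744), Cxcl14 (1.33, FDR 0.794) and Ccl25 (-0.68, FDR 0.818). DESeq2 called 1 member, Ccr2, at -1.13 ± 0.28 (FDR 0.0321). With 4 LS mice the intervals were wide: the 95% interval of the log2FC of Ccr2 ran from -1.67 to -0.59 and that of Cxcl14 from 0.30 to 2.36.

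Among CC ligands, Ccl8 and Ccl12 are monocyte chemoattractants of 1 cluster on chromosome 11 (GRCm38, Ccl12 at 82101845 to 82103400 and Ccl8 at 82115185 to 82116799), beside Ccl2, Ccl7 and Ccl11. Ccl12, a ligand of Ccr2, was between 0.237 and 1.79 CPM in AL mice (median 1.33). It was at 0.0709, 0.316, 0.754 and 0.751 CPM in LS1 to LS4, and between 0.295 and 0.848 CPM in Ctrl mice (median 0.461). All 7 AL mice of the first run stood above every LS and Ctrl mouse of that run, which held for 3.01% of all genes tested, and AL8 was the only AL mouse within the range of the controls. Its log2FC was 1.20 ± 0.38 (SE) against Ctrl (FDR 0.0268) and 1.57 ± 0.44 against LS (FDR 0.0156). The call against Ctrl was lost without AL9 (1.06), Ctrl1 (1.05) or Ctrl2 (1.09), and that against LS without LS2 (1.41).

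Ccl8 was between 1.19 and 16.1 CPM in AL mice (median 4.10). In LS1 to LS4 it was at 0.898, 2.44, 0.937 and 1.10 CPM, and in Ctrl mice between 1.14 and 3.26 CPM (median 1.67). AL4 stood far above the other AL mice, whose highest was 6.28 CPM, while AL3, AL7 and AL8 lay within the range of the Ctrl mice. The log2FC was 2.01 ± 0.54 against LS (FDR 0.0125) and 1.22 ± 0.44 against Ctrl (FDR 0.0458), and the call against Ctrl was lost in 14 of 20 fits that left out 1 mouse, with the lowest value, 0.81, without AL4. Against LS it was kept in all of these fits.

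The other CC ligands of that cluster did not follow. Ccl2, the main ligand of Ccr2, was between 0.731 and 7.32 CPM in AL mice (median 2.28), between 1.11 and 3.33 CPM in LS mice and between 0.461 and 12.3 CPM in Ctrl mice (median 0.996). The highest of all 20 values was in Ctrl4, and the groups overlapped. Ccl7, which shares Ccr2 with Ccl2, was likewise highest in Ctrl4 at 8.28 CPM, and its medians were 2.19 CPM in AL, 1.39 CPM in LS and 0.896 CPM in Ctrl mice. Ccl11 (eotaxin), which attracts eosinophils through Ccr3, had medians of 2.70 CPM in AL, 5.09 CPM in LS and 5.10 CPM in Ctrl mice, with a log2FC of -0.91 against Ctrl that did not pass. None of these 3 genes was called in any comparison.

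Ccl24, another eotaxin, was the member called lower against LS. It was between 0 and 0.854 CPM in AL mice (median 0.516), and at 1.21, 0.968, 1.30 and 1.73 CPM in LS1 to LS4. The 4 LS mice stood above the AL mice, and the Ctrl mice, at 0.0984 to 1.47 CPM, overlapped both groups. The share of all genes with every LS mouse above every AL mouse was not computed. The log2FC was -1.18 ± 0.42 (FDR 0.0486), and the call was lost in 14 of 20 fits that left out 1 mouse, with values of -1.31 to -1.02 over these fits.

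Ccl19 (ENSMUSG00000071005), which brings T cells and dendritic cells to lymphoid tissue through Ccr7, was between 0.119 and 0.861 CPM in AL mice (median 0.531). In LS1 to LS4 it was at 0.142, 0.400, 0.204 and 0.0963 CPM, and in Ctrl mice between 0 and 0.346 CPM (median 0.104), with 0 counts in 3 of them. The AL and Ctrl mice overlapped through AL3 and AL8, and the log2FC was 1.92 ± 0.59 against Ctrl (FDR 0.0232, and 1.66 without AL9, where the call was lost) and 1.45 ± 0.65 against LS (FDR 0.115). Ccr7 itself was at or under 0.593 CPM in all 20 mice, and its log2FC of 0.93 against Ctrl did not pass (FDR 0.119). In the first run alone it was called against Ctrl, at 1.12 ± 0.38 (FDR 0.0412), with AL mice at 0.131 to 0.287 CPM and Ctrl mice at 0.0622 to 0.142 CPM. These values rested on few counts, at 3, 6, 3 and 7 in Ctrl1 to Ctrl4. LS1 to LS4 had 12, 7, 4 and 9 counts of Ccr7 and overlapped the AL mice, and it was not called against LS in that run.

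Ccl25, the ligand of Ccr9, stood out by its low level in LS mice, at 0.780, 0.989, 0.937 and 1.12 CPM. AL mice lay between 0.947 and 3.20 CPM (median 1.86) and Ctrl mice between 0.892 and 3.15 CPM (median 1.83), so that AL and Ctrl covered the same range. The log2FC was 0.85 ± 0.27 against LS (FDR 0.0305) and 0.18 against Ctrl. The call was lost without AL1 and without any 1 of the 4 LS mice, at values of 0.76 to 0.93. Ccl22, a ligand of Ccr4, was called against merged controls, at a log2FC of 1.75 ± 0.60 (FDR 0.0277). It was between 0.131 and 1.20 CPM in AL mice (median 0.244), at 0, 0.231, 0.143 and 0.0578 CPM in LS1 to LS4 and between 0 and 0.896 CPM in Ctrl mice (median 0.0761), and Ctrl6 was the Ctrl mouse above the others. The call was lost without AL3 (1.52) or AL6 (1.49).

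Among CXC ligands, Cxcl14 (chromosome 13, 56288643 to 56296551), a chemokine of epithelia and stroma that attracts monocytes, had the lowest FDR of all members against Ctrl. It was at 26.3, 7.42, 6.89, 9.24, 15.3, 17.3, 14.5, 7.47 and 96.7 CPM in AL1 to AL9. In LS1 to LS4 it was at 10.8, 6.54, 5.48 and 11.7 CPM, and in Ctrl1 to Ctrl7 at 6.06, 4.53, 3.22, 3.74, 3.84, 4.88 and 3.77 CPM. Every AL mouse stood above every Ctrl mouse, which held for 1 of the 44 tested members and for 0.484% of all genes tested, while the LS mice overlapped both groups. The log2FC against Ctrl was 2.24 ± 0.45 (FDR 0.00166), and without AL9 it was 1.52 ± 0.31 (FDR 0.00249) and was still called. Against LS it was 0.91 and did not pass. AL9, with the highest Cxcl14, also had the highest mesothelial sum of 321 CPM, and the AL mouse with the next highest Cxcl14, AL1, had a mesothelial sum of 39.9 CPM, within the range of the Ctrl mice. Of 8 tested mesothelial markers 5 were called higher against Ctrl and 4 against LS, led by Upk1b. Over all genes tested 4.1% were called higher against Ctrl and 5.86% against LS. The part of the mesothelial markers in the difference of Cxcl14 was not tested.

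Cxcl5, a neutrophil attractant acting through Cxcr2, was low throughout. It was between 0 and 0.625 CPM in AL mice (median 0.272), at 0.0472, 0.0631, 0.122 and 0.0578 CPM in LS1 to LS4, and between 0 and 0.171 CPM in Ctrl mice (median 0.102). AL8, with 0 counts, was the only AL mouse below the highest LS mouse. The log2FC was 1.43 ± 0.49 against Ctrl (FDR 0.0388) and 2.10 ± 0.59 against LS (FDR 0.0162). The call was lost in 8 of 20 fits that left out 1 mouse against Ctrl (lowest 1.07, without AL9), and against LS without LS1 (1.95), LS2 (2.03) or LS4 (2.00). Its chromosome 5 neighbours Cxcl1 and Cxcl2, which act on the same receptor, were not called: Cxcl1 had medians of 1.78 CPM in AL, 1.09 CPM in LS and 0.697 CPM in Ctrl mice, and Cxcl2 was at most 0.443 CPM in AL mice and reached 0.982 CPM in LS4.

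Cxcl16, a membrane-bound ligand of Cxcr6 that also takes up oxidized lipoprotein, differed by a smaller and more even step. It was between 6.35 and 16.6 CPM in AL mice (median 8.87), at 6.02, 5.26, 5.48 and 6.88 CPM in LS1 to LS4 and between 5.06 and 7.57 CPM in Ctrl mice (median 6.37). AL7 lay within the range of both other groups, and the other 8 AL mice lay above every control. The log2FC was 0.62 ± 0.13 against Ctrl (FDR 0.0032), and fell under the fold threshold without AL9 (0.47) or Ctrl2 (0.58). Against LS it was 0.578 ± 0.162 (FDR 0.0155), just under the fold threshold. Cxcr6, which marks resident T cells, had medians of 1.14 CPM in AL, 0.714 CPM in LS and 0.769 CPM in Ctrl mice and was called in the first run alone against LS (log2FC 0.91 ± 0.30, FDR 0.033).

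Cxcl13, the B cell attractant of lymphoid follicles, was between 0.0844 and 12.5 CPM in AL mice (median 1.19), with AL9 far above the next mouse at 1.72 CPM. In LS1 to LS4 it was at 0.118, 0.316, 0.0204 and 0.135 CPM, and in Ctrl mice between 0.0748 and 2.09 CPM (median 0.977). The LS mice were low and overlapped with AL2 and AL3, and AL and Ctrl mice overlapped over most of their range. The log2FC was 2.57 ± 0.88 against LS (FDR 0.0413) and 0.91 against Ctrl, which did not pass. Against LS the call was lost without AL4, AL5, AL7, LS1, LS3 or LS4, at values of 2.20 to 2.51, and it was kept without AL9, at 2.32. Its receptor Cxcr5 did not pass the filter on low counts, with 47 counts over the 9 AL, 26 over the 4 LS and 22 over the 7 Ctrl mice.

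The interferon-induced ligands of Cxcr3, which attract activated T cells, were not called. Cxcl9 had medians of 4.06 CPM in AL, 3.82 CPM in LS and 4.09 CPM in Ctrl mice, with the highest value, 12.2 CPM, in Ctrl5. Cxcl10 had medians of 0.602 CPM in AL, 0.291 CPM in LS and 0.394 CPM in Ctrl mice. Cxcl11, which did not pass the filter on low counts, had 33 counts in 6 of the 9 AL mice, 1 count in 1 LS mouse and 0 counts in Ctrl mice. Cxcr3 had a log2FC of 1.14 ± 0.48 against LS that did not pass (FDR 0.0914) and of 0.05 against Ctrl. Beside these values, 10 of 31 tested interferon response genes were called higher and 2 lower against Ctrl, and 21 higher and 0 lower against LS. Over all genes tested 7.81% were called against Ctrl (4.1% higher) and 8.9% against LS (5.86% higher). Irf7, a transcription factor of that response, had a log2FC of 2.45 against LS and 1.44 against Ctrl. In LS against Ctrl 0 of the 31 genes were called and 0 lay above 0, with a median log2FC of -0.59. Summed, the interferon response genes stood at 654 to 974 CPM in AL and 369 to 835 CPM in Ctrl mice of the first run. LS mice had 307 to 753 CPM. In the second run the order was the reverse, with 370 to 437 CPM in AL and 559 to 817 CPM in Ctrl mice.

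Cxcl12, the stromal chemokine that holds progenitor cells in their niche, was the member with the highest CPM. It was between 87.7 and 223 CPM in AL mice (median 131), at 108, 125, 129 and 122 CPM in LS1 to LS4 and between 102 and 169 CPM in Ctrl mice (median 119). The groups overlapped, with a log2FC of 0.17 against Ctrl and 0.04 against LS. Its signalling receptor Cxcr4 was between 2.83 and 5.42 CPM in all 20 mice and had a log2FC of 0.22 against Ctrl and 0.14 against LS. Neither gene was called.

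The fractalkine pair was measured on both sides. Cx3cl1 (fractalkine), a ligand anchored on endothelium and other cells, was between 5.96 and 26.5 CPM in AL mice (median 8.41), between 5.36 and 7.68 CPM in LS mice and between 5.13 and 8.88 CPM in Ctrl mice (median 7.28). AL9 was again the mouse far above the others, and the log2FC of 0.579 against Ctrl (SE 0.191, FDR 0.0317) was just under the fold threshold. Its receptor Cx3cr1, which marks monocytes and resident macrophages, was between 1.30 and 5.10 CPM in AL mice (median 2.84). It was at 0.378, 0.968, 2.85 and 0.847 CPM in LS1 to LS4 and between 0.468 and 2.08 CPM in Ctrl mice (median 1.32). LS3 lay at the AL median, and AL1, AL2 and AL7 lay within the range of the Ctrl mice. The log2FC was 1.28 ± 0.39 against Ctrl (FDR 0.0206) and 1.02 ± 0.45 against LS (FDR 0.109). The call against Ctrl was lost without Ctrl4 (1.11), in the first run alone (1.30, FDR 0.0744), in the second run alone (1.29, FDR 0.296) and without AL8 and AL9 together (1.30, FDR 0.0617).

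Xcl1, a ligand made by NK cells and T cells, and its receptor Xcr1, the mark of cross-presenting dendritic cells, were both near the floor. Xcl1 was between 0 and 0.540 CPM in AL mice (median 0.199), with 0 counts in AL8 and AL9, at 0.118, 0.168, 0.244 and 0.0193 CPM in LS1 to LS4 and between 0 and 0.114 CPM in Ctrl mice (median 0.0203). It was called against merged controls, at a log2FC of 1.51 ± 0.57 (FDR 0.0473). Xcr1 was between 0 and 1.13 CPM in AL mice (median 0.221), again with 0 counts in AL8 and AL9, at 0.165, 0.105, 0.224 and 0.135 CPM in LS1 to LS4 and between 0.0984 and 0.456 CPM in Ctrl mice (median 0.199). The AL and Ctrl mice overlapped, and against LS the log2FC was 1.63 ± 0.58 (FDR 0.0487). Leaving out 1 mouse ended the call of Xcl1 in 12 of 20 fits (values of 1.32 to 1.81) and that of Xcr1 in 13 of 20 (1.31 to 1.84). In the same comparisons 0 of 13 tested dendritic cell markers and 0 of 8 NK cell markers were called. Over all genes tested 8.9% were called against LS and 4.88% against merged controls, so that lists this short would hold few calls. Against LS 12 of the 13 dendritic cell markers (median log2FC 0.55) and 6 of the 8 NK cell markers (0.65) lay above 0. Against merged controls these were 12 (0.35) and 3 (-0.05), and the median over all genes was 0.01 in both comparisons.

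Receptors gave the difference with the lowest FDR of the members against LS. Ccr2, the receptor that draws monocytes out of bone marrow and blood, lies at 124101950 to 124113557 on chromosome 9, near Ccr1, Xcr1 and Cxcr6. It was at 3.94, 5.10, 6.92, 7.51, 5.98, 7.32, 4.94, 4.03 and 6.20 CPM in AL1 to AL9. In LS1 to LS4 it was at 1.04, 1.35, 2.30 and 1.68 CPM, and in Ctrl1 to Ctrl7 at 5.50, 3.06, 2.29, 2.87, 2.46, 3.88 and 3.46 CPM. Every AL mouse stood above every LS mouse, which held for 1 of the 44 tested members and for 5.24% of all genes tested, and Ctrl1 was the only Ctrl mouse within the range of the AL mice. The log2FC was 1.89 ± 0.26 against LS (FDR 0.000399) and 0.75 ± 0.21 against Ctrl (FDR 0.0134), and both calls were kept in all 20 fits that left out 1 mouse. In the second run alone the value against Ctrl was 0.71 and was not called (FDR 0.410).

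Ccr1, a receptor of Ccl3 and Ccl5 found on monocytes and neutrophils, was between 1.07 and 7.32 CPM in AL mice (median 3.34), at 0.780, 1.33, 2.10 and 2.10 CPM in LS1 to LS4 and between 0.787 and 3.29 CPM in Ctrl mice (median 1.49). AL8 was the only AL mouse within the range of the LS mice, and AL2, AL3, AL5 and AL8 lay within the range of the Ctrl mice. The log2FC was 0.97 ± 0.35 against Ctrl (FDR 0.0466) and 1.26 ± 0.44 against LS (FDR 0.0426). Leaving out 1 mouse ended the call in 14 of 20 fits against Ctrl (lowest 0.50, without AL9) and in 10 of 20 against LS (lowest 1.03, without LS1). Of the ligands of Ccr1, Ccl6 had medians of 23.9 CPM in AL, 21.1 CPM in LS and 25.2 CPM in Ctrl mice, and Ccl9 had 18.3 CPM, 16.9 CPM and 17.97 CPM, and neither was called. Ccl5 had medians of 0.531 CPM in AL, 0.454 CPM in LS and 0.449 CPM in Ctrl mice and was not called. Ccl3 and its relative Ccl4 did not pass the filter on low counts, with 45 and 48 counts over the 9 AL mice, 7 and 17 over the 4 LS mice and 12 and 11 over the 7 Ctrl mice. Cxcr2, the neutrophil receptor, had medians of 0.266 CPM in AL, 0.244 CPM in LS and 0.228 CPM in Ctrl mice, and its highest values were 1.66 CPM in AL8, 1.29 CPM in AL9 and 1.22 CPM in Ctrl4. Neutrophil markers, 12 genes of which 9 were tested, summed to 44.9 CPM in AL8 and 68.7 CPM in AL9, and to between 7.75 and 32.5 CPM in the other AL mice. They summed to between 7.49 and 11.1 CPM in LS mice. In Ctrl mice the sums were 8.65 to 24.9 CPM in the first run and 3.44 to 7.15 CPM in the second. The medians of the first run were 12.6 CPM in AL and 17.5 CPM in Ctrl mice. Of these markers 1 of the 9 tested, Lcn2, was called higher in AL mice, against Ctrl and against LS. Over all genes tested 4.1% were called higher against Ctrl and 5.86% against LS.

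No atypical receptor was called in any comparison. Ackr3, the scavenger of Cxcl12, was between 58.7 and 91.6 CPM in AL mice (median 67.3), between 63.5 and 69.3 CPM in LS mice and between 39.9 and 70.6 CPM in Ctrl mice (median 55.3). Its log2FC of 0.44 ± 0.12 against Ctrl passed the FDR (0.0122) and was under the fold threshold. Ackr1, which lines venules and carries chemokines across them, and Ackr2 and Ackr4, which degrade CC ligands, had log2FC of 0.60, 0.07 and 0.38 against Ctrl, with FDR above 0.05. Ccrl2, which presents chemerin and not a chemokine, was at 14.9, 15.97, 8.48 and 8.67 CPM in LS1 to LS4 and between 6.09 and 11.4 CPM in AL mice, so that LS1 and LS2 stood above all AL mice. Its log2FC was -0.565 ± 0.197 against LS (FDR 0.0441), under the fold threshold.

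**Figure D3:**
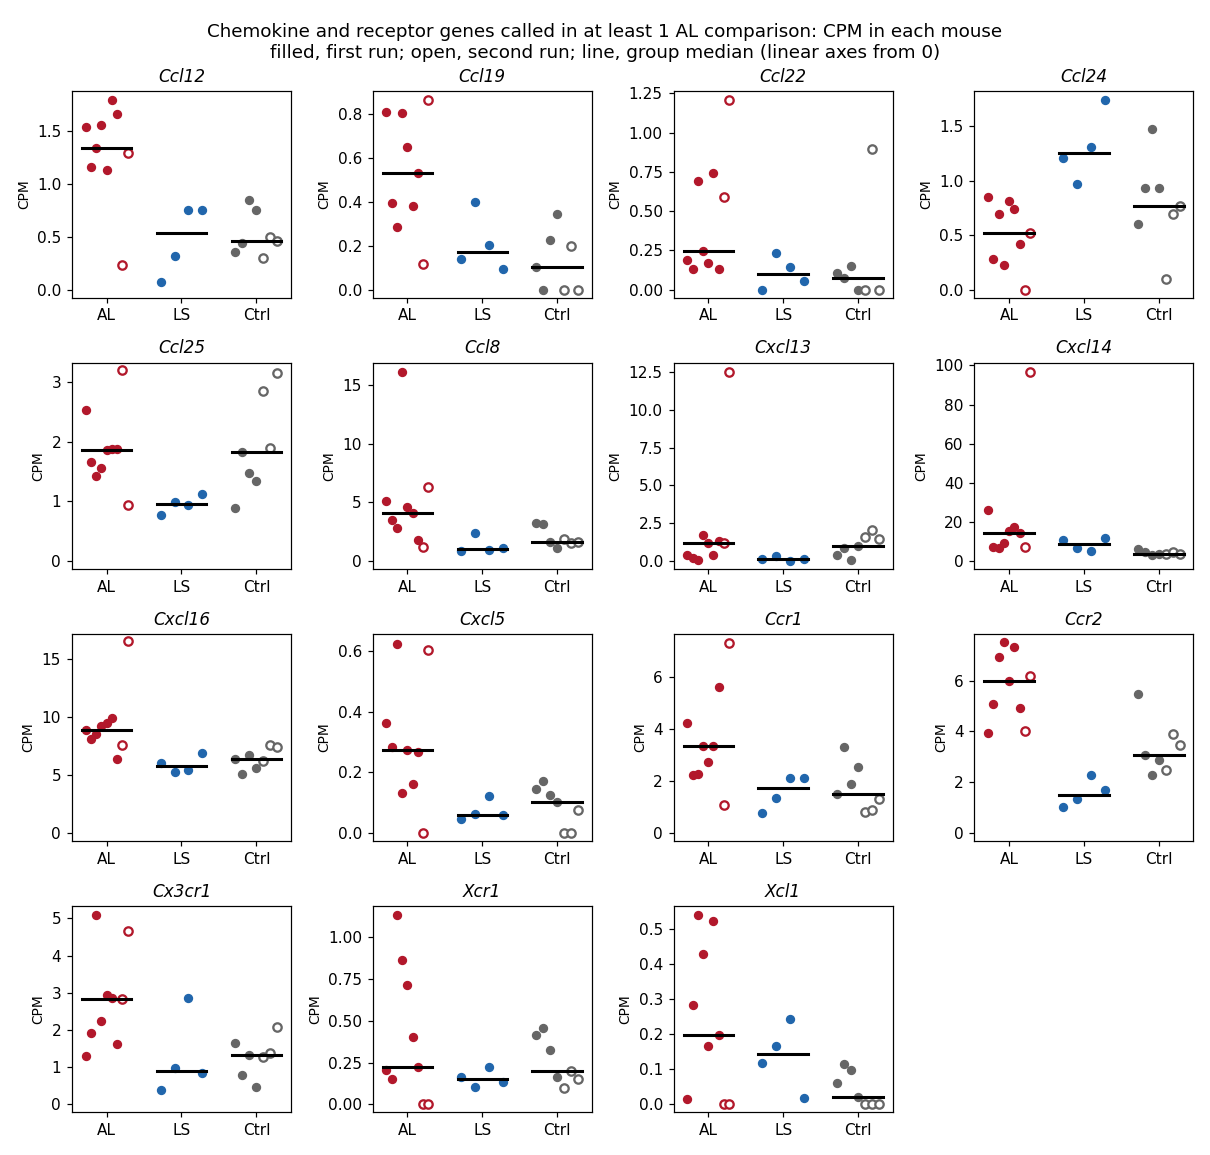
CPM (TMM-normalized, linear axes) of 15 members called in at least 1 AL comparison, 1 point a mouse, filled for the first run and open for the second, with the group median as a line. For Ccr2 all AL points lie above all LS points, for Cxcl14 all AL points lie above all Ctrl points with AL9 far above the rest at 96.7 CPM, and for Ccl12 the open AL point below the others is AL8.

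The runs were then compared, since sequencing depth and the balance of groups differed between them. In the first run alone, AL against Ctrl gave 4 called members, all higher (Ccl12, Cxcl14, Ccr2 and Ccr7). This was 9.09% of the 44 tested members, against 7.82% of all genes tested. At the FDR alone 6 members passed (13.6%), against 25.6% of all genes tested. The share of members called against Ctrl was thus near that of all genes in this run, unlike in the fit of both runs. AL against LS gave 10 higher and 1 lower (25%), against 11.5% of all genes tested. LS against Ctrl gave 0, against 0.021% of all genes tested. At an unadjusted p under 0.05 the latter comparison had 6 members (13.6%), against 8.21% of all genes tested. In the second run alone, with 2 AL and 3 Ctrl mice, edgeR called 0 of 26 tested members, against 0.128% of all genes tested, and 9 members (34.6%) had an unadjusted p under 0.05, against 14.1% of all genes tested. Of the 26 members tested in both runs, 14 had a log2FC above 0 in both, 5 were above 0 in the first run and below 0 in the second, 6 the reverse, and 1, Ccl11, was below 0 in both.

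Members with the same direction and a similar size in both runs included Ccr2 (0.80 in the first and 0.71 in the second run), Cx3cr1 (1.30 and 1.29), Ccl8 (1.24 and 1.22) and Cxcl16 (0.55 and 0.84). Cxcl14 was at 1.66 ± 0.36 in the first and 3.72 ± 0.89 in the second run. The opposite was seen for Cxcr2 (-1.08 and 3.52) and Ccl2 (-0.72 and 2.70), where Ctrl4 was high in the first run. The difference of the AL against Ctrl log2FC between runs was tested for 37 members, and 0 passed an FDR of 0.05, against 0.701% of all genes tested. At an unadjusted p under 0.05 there were 12 of the 37, against 15.3% of all genes tested, led by Cxcr2 (second minus first run 4.64 ± 1.09, FDR 0.0653) and Cx3cl1 (1.07 ± 0.36, FDR 0.162).

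**Figure D4:**
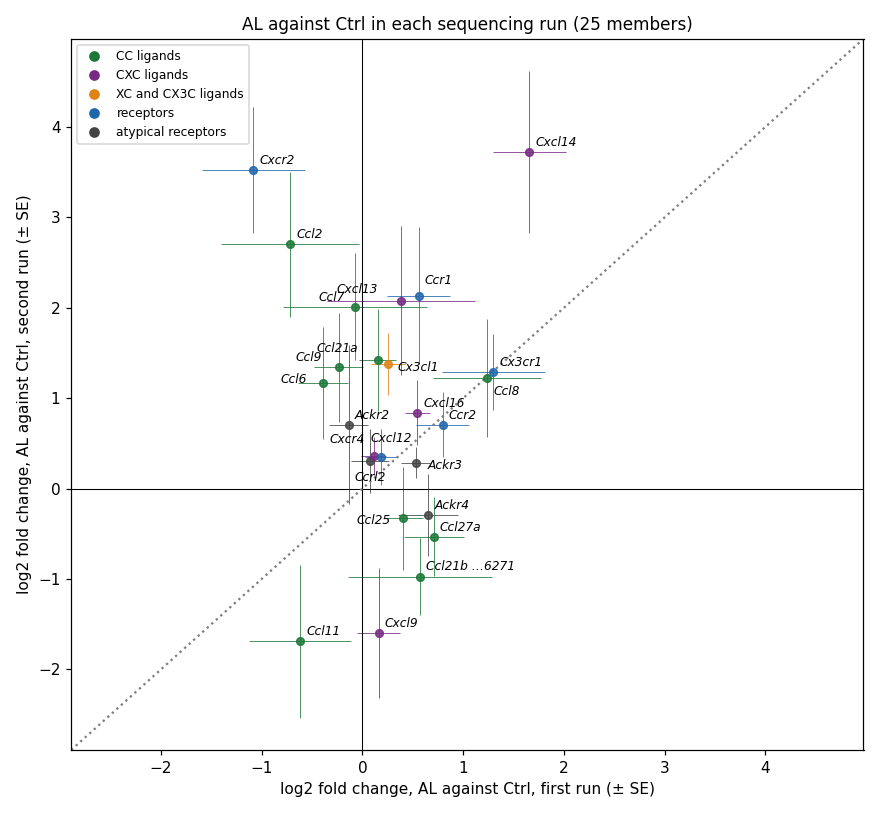
Log2 fold changes of AL against Ctrl in the first run (horizontal, 7 AL and 4 Ctrl mice) and in the second run (vertical, 2 AL and 3 Ctrl mice) for 25 of the members tested in both, with standard errors; the dotted line marks equal values and colours mark roles. Cx3cr1, Ccl8 and Ccr2 lie near the line, Cxcr2 and Ccl2 lie to the left of 0 in the first run and above 2 in the second.

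The members that were not tested were 25 rows, of which 7 had 0 counts in every mouse. The other 18 rows had counts, and their highest level in any mouse was 1.39 CPM, reached by the copy Ccl21c in 1 Ctrl mouse. Ccl17, which shares Ccr4 with Ccl22, had 62 counts in 8 of the 9 AL mice, 10 in 3 of the 4 LS mice and 17 in 4 of the 7 Ctrl mice. Receptors of this kind were Ccr10, Ccr9, Ccr4, Ccr6, Ccr3, Ccr8, Cxcr1 and Cxcr5, with between 4 and 47 counts over the AL mice. In a fit with no filter on low counts, 1 of these 18 rows was called against Ctrl, Cxcl11 (FDR 0.0162), where 6.33% of all genes in that fit were called. Cxcl11 was also the 1 row called against LS (FDR 0.0434) and against merged controls (FDR 0.00135), where 6.74% and 5.08% of all genes were called. In each comparison 1 of 18 rows was near the share of all genes. With 0 counts of Cxcl11 in Ctrl mice no fold is given. The other 17 rows were not called in that fit.

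Genes of the pathway outside the naming rule were read from fixed lists. Of 47 tested genes that carry the signal inside the cell, 5 were called higher and 0 lower against Ctrl, and 7 higher and 2 lower against LS, with list medians of 0.11 and 0.17. Over all genes tested 7.81% were called against Ctrl (4.1% higher) and 8.9% against LS (5.86% higher), with medians of 0.01. The largest was Fgr, a Src family kinase of myeloid cells, with log2FC of 1.92 ± 0.41 against Ctrl and 2.33 ± 0.52 against LS. Rgs1, which dampens G protein signals from chemokine receptors, had 1.49 ± 0.49 and 1.84 ± 0.62, and Pik3r5, a subunit of the kinase downstream of these receptors, had 0.77 against Ctrl. Of 13 chemokine-related genes outside the rule, Ppbp was called higher in both comparisons (1.58 and 1.72) and Gpr35 against LS (1.25). Ppbp, a platelet chemokine of the CXC family, moved beside platelet genes, of which 2 of 9 were called higher against Ctrl and 5 of 9 against LS, Ppbp among them.

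Markers of several cell types moved beside the members, among them the mesothelial, liver and platelet genes given above. Myeloid markers moved in part. For the counts that follow, 7.81% of all genes tested were called against Ctrl (4.1% higher) and 8.9% against LS (5.86% higher). Of 11 tested monocyte markers 3 were called higher and 1 lower against Ctrl, and 5 higher against LS. The highest was Chil3, a product of monocytes and macrophages, with log2FC of 2.46 and 2.94. Ly6c2, the mark of newly arrived monocytes, was lower against Ctrl at -2.08 and had 0.55 against LS (FDR 0.575), with mean levels of 0.528 CPM in AL, 0.372 CPM in LS and 2.26 CPM in Ctrl mice. Macrophage markers at large gave 1 call in each direction of 18 against Ctrl and 0 of 18 against LS. Markers of macrophages that handle lipid and debris gave 5 of 13 called higher against Ctrl and 6 of 13 against LS, led by Mmp12, a macrophage elastase, at 4.64 and 5.02. The part of these markers in the values of Ccr2, Ccr1 and Cx3cr1 was not tested.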

How the data were processed

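RNA of the heart apex of 20 mice (9 AL, 4 LS and 7 Ctrl) was sequenced. The authors made stranded libraries of polyadenylated RNA, aligned paired-end reads to GRCm38 with STAR, estimated counts per gene with Salmon, and deposited these estimated counts without normalization or adjustment for the run. Of the deposited values 14.2% were not whole, and they were rounded. Columns were matched to mice by library name, and group and run come from the labels; where nothing says otherwise each sample is taken as 1 mouse. Genes passing filterByExpr (minimum count 10) were scaled by TMM and tested with glmQLFit and glmQLFTest of edgeR 4.0.16 (R 4.3.3), with group and run in the model, the 3 groups fitted together, two-sided, Benjamini-Hochberg over all genes tested. SE was derived from the F statistic, and intervals and floors cover counting error or spread between mice only. Differences between runs were tested as an interaction of group and run in AL and Ctrl mice. Gene positions and exon lengths come from GENCODE M21, which matched all 69 rows. The count tests were tested on simulated data. Alternatives were other filters, scalings, tools, run adjustments, covariates and samples, and, chosen after seeing the data, copies summed and AL8 and AL9 left out together. The members and gene lists were chosen with earlier results of these data known. Named are members called in any comparison or in the first run alone, fixed ligand and receptor pairs, atypical receptors, and at most 3 called genes a list. The values of 1 tested member are not reported here, and it is included in the counts of members. The amyloid load of each mouse was not analysed here.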

Additional observations from a re-analysis of the deposited data

Results flagged for a closer look

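The values of 15 called members were examined in each of the 3 groups for a mouse that stood apart from the others of its group (gap to the nearest mouse over the range, Dixon's 95% critical value). For normal and independent values chance would flag about 1 in 20 groups, or 2.2 of the 45 examined, and 7 were found. The values were CPM on a linear scale from runs of unlike depth, and the members share their mice. The 7 can therefore not be read as an excess over 2.2. AL9 accounted for 3 of them, each time above the others: Cxcl14 at 96.7 CPM (next 26.3), Cxcl13 at 12.5 CPM (next 1.72) and Cxcl16 at 16.6 CPM (next 9.95). AL8 was below the others for Ccl12, at 0.237 CPM (next 1.13). AL8 and AL9 are the AL mice of the second run, where 1 count is worth more CPM. The values of AL9 rested on 1124 (Cxcl14), 145 (Cxcl13) and 193 (Cxcl16) counts. That of AL8 for Ccl12 rested on 2 counts, under the floor of 3. The cause of the flagged values was not tested. Ccl8 was high in AL4 at 16.1 CPM (next 6.28) and in LS2 at 2.44 CPM (next 1.10), and Ccl22 in Ctrl6 at 0.896 CPM (next 0.150).

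Among the rows under the filter on low counts, 4 had more than 3 counts over the AL mice and 0 counts in Ctrl mice. The share of all genes with this pattern was not computed, and the AL group held more mice than the Ctrl group. Cxcl11 had 33 counts over 6 AL mice. Cxcl3 and Cxcl15 had 6 counts each, and a second row of Ccl27a (ENSMUSG00000093828) had 4 counts in 1 AL mouse. In the fit with no filter on low counts Cxcl11 was called in AL against Ctrl (FDR 0.0162), and Cxcl3 (FDR 0.0708), Cxcl15 (FDR 0.283) and that row of Ccl27a (FDR 0.354) were not. Of all genes in that fit 6.33% were called.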

How the results depend on the processing

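AL against Ctrl called 9 members, and 4 in the first run alone, 0 in the second run alone, 4 with the replicate number as a block, 5 with liver genes as a covariate and 5 without AL8 and AL9 together. Of the 9, the block kept 2 (Ccl12 and Cxcl14) and not, for example, Ccr2 (0.74, FDR 0.143) or Cx3cr1 (1.17, FDR 0.113), the covariate kept 4, and the fit without AL8 and AL9 kept 3. Leaving out 1 mouse gave 4 (without AL9) to 11. AL against LS called 10 members, 4 with at least 10 counts in every mouse, where 17 members were tested, 6 with ComBat-seq in place of the run term and 6 with only the 2 groups compared. Leaving out 1 mouse gave 4 (without LS1 or LS2) to 12, with 6 without AL4 or LS4. LS against Ctrl called 0, and 1 by DESeq2. AL against merged controls called 10, 4 with at least 10 counts in every mouse, 6 with the replicate block and 6 with the liver covariate, and 8 to 12 without 1 mouse. The cause of these moves was not tested, other than the fewer genes or mice that enter such fits. The interaction with the run gave 0 members under each alternative run.

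Over all genes, AL against Ctrl called 1130, and 587 with at least 10 counts in every mouse, 16 in the second run alone and 3792 with no requirement on log2FC. AL against LS called 1288, 637 with ComBat-seq and 3382 with no requirement on log2FC. AL against merged controls called 707, 138 with at least 10 counts in every mouse and 1468 at a log2FC of 0.58. LS against Ctrl called 3, 19 by DESeq2, 9 by the likelihood ratio test and 6 with ComBat-seq, and the interaction 97, and 62 with at least 10 counts in every mouse.

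Same-numbered mice of different groups deviated together weakly (15 pairs, r of -0.228 to 0.293, median 0.0389, 4 above 0.1), so that the numbers were not taken to pair mice. Over single members and all comparisons no called value changed sign. At the depth of the second run, differences in members under 0.231 CPM were not detectable.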
